A study of Mus musculus with 54 samples.

Results

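The transcripts of 10 cytoskeletal genes were followed in RNA-seq libraries of single sides of mouse ovarian follicles. They encode 3 alpha-tubulins (*Tuba1a*, *Tuba1b* and *Tuba1c*), 5 beta-tubulins (*Tubb2a*, *Tubb2b*, *Tubb4b*, *Tubb5* and *Tubb6*), stathmin 1 (*Stmn1*) and thymosin beta-10 (*Tmsb10*). The genes were taken by symbol from deposited tables of 25149 genes, and all 10 were found. They were chosen by their measured levels and differences across these 4 groups, with results of these data in view. Which of the comparisons weighed in the choice is not recorded, so their fold changes and false discovery rates (FDRs) describe the genes and do not test the choice.

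Follicles of CD-1 mice aged 14 to 16 days were grown individually in alginate for 8 days and then kept for 12 h in maturation medium containing hCG, an analog of luteinizing hormone, or in the same medium without it. Each follicle was then microdissected, the cumulus-oocyte complex was discarded, and each side was made into a library with Smart-Seq2, a cDNA protocol for very small RNA inputs. Without hCG, where no rupture takes place, the sides were told apart by morphology and are called the putative unruptured side (15 libraries) and the putative ruptured side (14 libraries). The post-hCG groups were the unruptured side (12 libraries) and the ruptured side (13 libraries), which gave 54 libraries in 4 groups. In the GEO labels the tissue is given as cumulus-oocyte complex, but the summed level of 8 oocyte markers had a median between 0 and 0.08 TPM (a transcript level scaled by length and by library) in the 4 groups. Replicate 1 of the putative unruptured side stood apart with 151 TPM of these markers, compared with at most 23.1 TPM elsewhere, and without it 7 members passed the test between the sides without hCG and 9 passed with hCG on the unruptured side, the same counts as with it. The sources used here do not say which sides came from the same follicle or animal, so p-values measure only the spread between these libraries.

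Microtubules are hollow polymers of alpha- and beta-tubulin dimers, and vertebrate cells draw these subunits from small families of closely related genes called isotypes. Cells also adjust tubulin mRNA to the pool of free dimers, by a pathway in which the adaptor TTC5 recognizes the first amino acids of a nascent tubulin chain on the ribosome. Stathmin binds free tubulin dimers and favors microtubule shrinkage, and it is abundant in proliferating cells. Thymosin beta-10, like its relative thymosin beta-4, binds actin monomers and holds them out of filaments.

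The start of the coding sequence is shown first because it encodes the residues that the autoregulation pathway reads. The first 30 coding bases of 7 of the tubulin genes follow, 5′ to 3′, read from the GENCODE M21 transcripts of GRCm38, with the first 4 codons in capitals.
Tuba1a: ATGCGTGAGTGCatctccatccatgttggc
Tuba1b: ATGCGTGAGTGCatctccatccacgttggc
Tuba1c: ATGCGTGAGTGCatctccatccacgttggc
Tubb2a: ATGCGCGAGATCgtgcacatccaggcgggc
Tubb2b: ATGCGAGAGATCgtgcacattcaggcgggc
Tubb4b: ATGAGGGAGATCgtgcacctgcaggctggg
Tubb5: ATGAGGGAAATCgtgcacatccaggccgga
The alpha genes carried the same 4 codons, and the beta genes differed from each other only in how the codons were spelled, with the same residues encoded.

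In the GENCODE M21 annotation of GRCm38 the alpha genes lie within a short stretch of chromosome 15, *Tuba1b* at chr15:98931425-98934565 and *Tuba1a* at chr15:98949837-98953703 on the minus strand and *Tuba1c* at chr15:99029891-99038110 on the plus strand. *Tubb2a* (chr13:34074274-34078007) and *Tubb2b* (chr13:34126748-34130466) also lie near each other. *Tubb4b* (chr2:25222160-25224702), *Tubb5* (chr17:35833921-35838306), *Stmn1* (chr4:134468320-134473843) and *Tmsb10* (chr6:72957347-72958748) lie apart, and all 10 genes are annotated as protein coding.

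Likeness between isotypes also limits how well short reads can be assigned. Over the whole coding sequence the alpha genes were 97.1% to 98.3% identical, *Tubb2a* and *Tubb2b* were 96.5% identical, and the other beta pairs were 80.3% to 84.6% identical. The last 60 coding bases of *Tubb2a* and *Tubb2b* are given below, ending in the stop codon, with capitals at the positions where the pair differed.
Tubb2a: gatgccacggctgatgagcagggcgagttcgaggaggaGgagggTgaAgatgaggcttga
Tubb2b: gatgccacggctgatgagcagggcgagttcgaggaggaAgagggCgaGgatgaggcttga
This stretch encodes the acidic tail that sets many isotypes apart, yet it differed at 3 bases between *Tubb2a* and *Tubb2b*.

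Short stretches of the coding sequences were compared with all GENCODE M21 transcripts. Of all 35-base windows in each coding sequence, 93.6% to 96.9% of those in the alpha genes were also found in a transcript of another gene, as were 65.8% in *Tubb2a*, 72.9% in *Tubb2b* and 74.2% in *Tubb4b*. The share was 1.92% for *Tubb5* and 2.52% for *Tubb6*, so their coding reads could largely be told apart. For *Stmn1* (93.8%) and *Tmsb10* (97.0%) the shared windows lay mainly in the predicted genes *Gm11223* and *Gm3788*. Over whole transcripts the shares were lower for these genes, at 63.2% to 76.1% for the alpha genes and 54.4% for *Tubb2a*. They were 44.3% for *Tubb2b*, 61.8% for *Tubb4b*, 41.2% for *Stmn1* and 64.9% for *Tmsb10*. For *Tubb5* and *Tubb6* they were 3.17% and 1.91%. Estimated counts were not whole numbers, within a tolerance of 0.005, in 83.3% to 100% of libraries for the tubulin genes, in 94.4% for *Tmsb10* and in 16.7% for *Stmn1*, compared with 27.8% of all values above 0. Levels of single alpha isotypes, of *Tubb2a*, *Tubb2b* and *Tubb4b*, and of *Tmsb10* are therefore uncertain to the extent that reads were divided between near-identical genes. The values of *Tubb5*, the most abundant beta isotype, rest on sequence that is nearly its own, although its counts were not whole in 98.1% of libraries.

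Totals ran from 1497138 to 2834794 counts per library, and no pair of libraries in a group agreed within counting error. With an FDR threshold of 0.05, 53.1% of 9320 genes differed with hCG on the unruptured side and 60.1% of 8531 genes on the ruptured side. The sides differed in 17.8% of 9063 genes without hCG and in 21.4% of 8585 genes post-hCG. In the deposited column names, the letter and number labels of each group form a run of their own. What those labels stand for is not stated, and anything tied to their order cannot be told apart from side or hCG. Scaling by library totals alone moved the median log2 fold change (log2FC) of all genes by more than 0.1 in 3 comparisons, to -0.14 between the sides post-hCG and to -0.25 and -0.33 with hCG on the unruptured and ruptured side. It also moved the share of calls that were higher from 49.7% to 39.3% (sides without hCG), from 47.0% to 17.8% (sides post-hCG), from 47.8% to 27.5% and from 49.4% to 24.5% (hCG on the unruptured and ruptured side), and from 47.8% to 25.8% (interaction). The members other than *Tuba1c* and *Stmn1* kept their direction in every comparison and setting tried. Summed levels of 8 granulosa markers had medians of 4057, 13071, 1551 and 1284 TPM on the putative unruptured, putative ruptured, unruptured and ruptured side, in that order. For 8 theca and stroma markers the medians were 531, 35.4, 345 and 4.52 TPM, and for 22 cell cycle genes 34.4, 66.6, 27.1 and 41.4 TPM. Endothelial and immune marker sums had medians of at most 3.50 TPM, and surface epithelium markers of at most 0.730 TPM. Sums of 5 smooth muscle markers had medians of 33.3, 4.68, 4.18 and 1.29 TPM, of 5 neural markers, *Tubb3* among them, 30.7, 14.7, 8.05 and 4.06 TPM, and of 5 genes of the LH-induced matrix program 8.00, 9.76, 26.8 and 24.0 TPM. In these bulk libraries, fewer cells of a type and less RNA per cell cannot be told apart.

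To determine how ovulation induction was accompanied by changes in these transcripts, libraries with and without hCG were compared within each side. Of the 10 genes, 9 were lower post-hCG on the unruptured side, where 27.7% of all genes tested were lower, and 9 were lower on the ruptured side, where 30.4% were. *Tuba1c* was the member that did not pass the test on either side. The median log2FC of the members was -1.16 (unruptured side) and -2.07 (ruptured side), with medians over all genes of -0.030 and -0.0012. Library ranges did not overlap for 2 members on the unruptured side (5.08% of genes) and for 7 on the ruptured side (7.04% of genes). All levels below are TPM, which account for transcript length, given as the lowest, median and highest library.

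**Figure D1:**
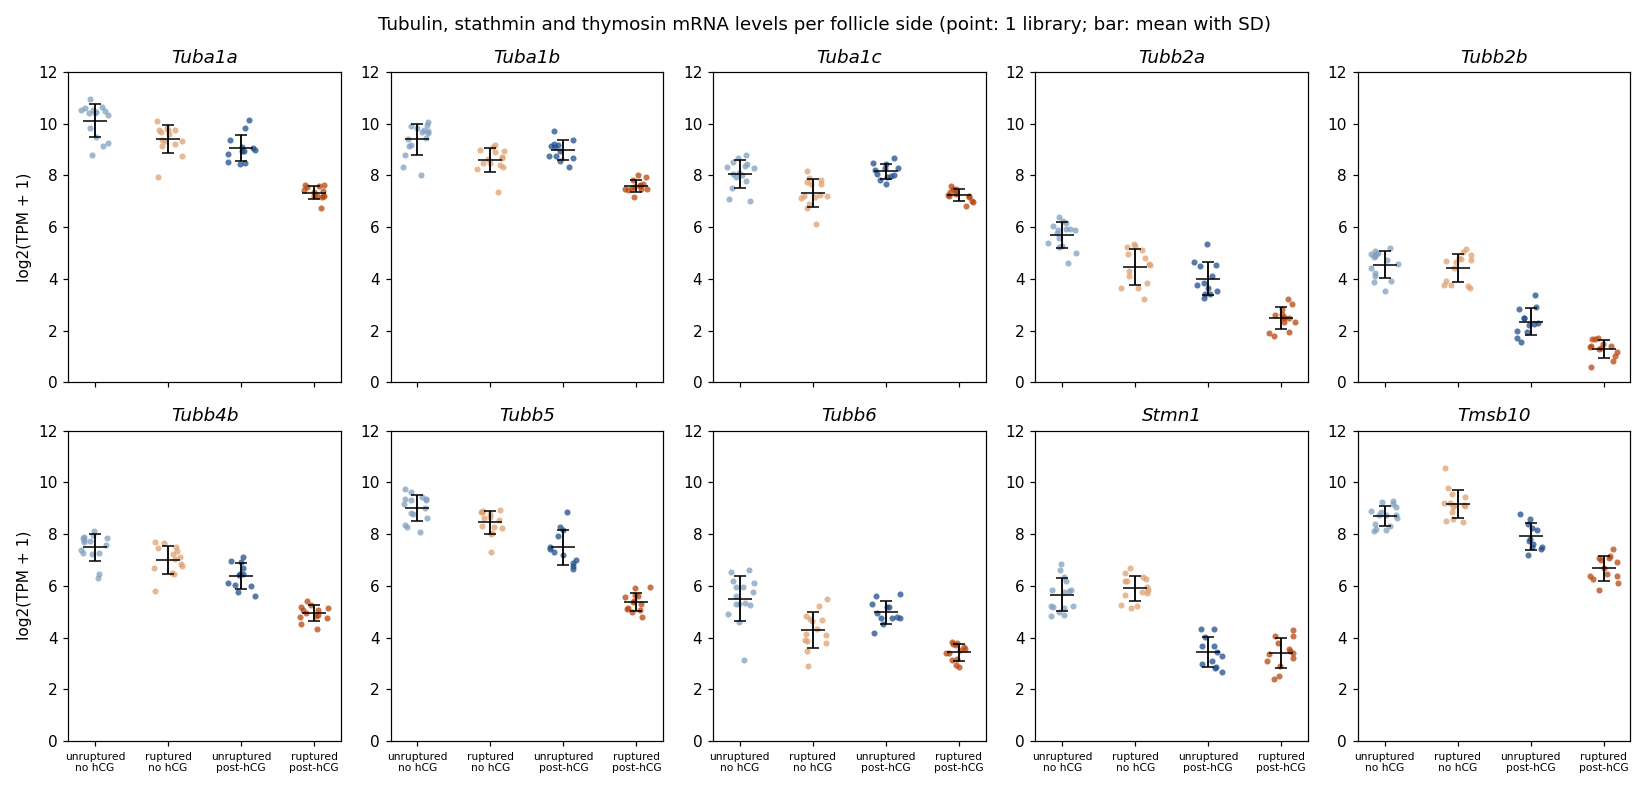
Levels of the 10 genes in each of the 54 libraries as log2(TPM + 1), by follicle side and hCG, with the group mean and SD in black. *Tuba1a*, *Tubb4b* and *Tubb5* step down to a ruptured post-hCG group that lies below the other groups, *Tuba1c* passed the test between sides and not with hCG, and *Stmn1* passed with hCG and not between sides.

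*Tuba1a* and *Tuba1b* encode alpha-tubulins and were among the most abundant members. *Tuba1a* ranged from 441 to 1984 (median 1347) in putative unruptured libraries and from 348 to 1117 (median 503) in unruptured libraries post-hCG. On the putative ruptured side it ranged from 245 to 1092 (median 718), and in ruptured libraries post-hCG from 104 to 199 (median 161). The ruptured side post-hCG was thus the lowest group, without overlap with either of the groups it was compared with, and its libraries were also the least spread on the log2 scale. The hCG log2FC of *Tuba1a* was -1.15 ± 0.23 (SE, FDR = 8.16e-05) and -1.95 ± 0.16 (FDR = 1.26e-12) for the unruptured and ruptured side.

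*Tuba1b* fell less. Its medians were 804 (257 to 1067) and 520 (319 to 836) on the unruptured side without and with hCG, and 401 (163 to 577) and 184 (143 to 254) on the ruptured side. The log2FC was -0.53 ± 0.20 (FDR = 0.0242) and -0.88 ± 0.14 (FDR = 2.31e-06). The unruptured-side call did not hold with limma on log2(TPM + 1), with a log2FC of -0.41 and an FDR of 0.0865.

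*Tuba1c* did not pass the test with hCG on either side. Its medians were 270 (127 to 443) and 278 (203 to 406) on the unruptured side and 149 (68.1 to 285) and 149 (110 to 194) on the ruptured side. The post-hCG range lay within the range without hCG on each side, and log2FC was -0.03 ± 0.19 (FDR = 0.917) and 0.03 ± 0.16 (FDR = 0.879). Its sign changed with the setting on both sides.

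The make-up of the alpha transcripts differed accordingly. *Tuba1a* made up 54.2% ± 4.2 (SD, n = 15) of the summed alpha TPM in putative unruptured libraries and 55.0% ± 4.3 (n = 14) in putative ruptured libraries. Post-hCG its share was 40.4% ± 4.5 (n = 12) on the unruptured and 31.8% ± 1.5 (n = 13) on the ruptured side. *Tuba1c* went from 13.1% ± 2.4 and 13.3% ± 2.3 to 21.6% ± 3.1 and 29.9% ± 1.4 in the same order of groups. The ratio of *Tuba1c* to *Tuba1a* was 0.245 on each side without hCG, 0.547 on the unruptured side and 0.944 in ruptured libraries post-hCG. In ruptured libraries post-hCG the gap between *Tuba1a* and *Tuba1c* was smaller than the spread between libraries. *Tuba1b* stood above *Tuba1a* there by 0.27 in mean log2(TPM + 1), more than the spread. Since most coding windows of these genes are shared, the split between them depends on how reads were divided.

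**Figure D2:**
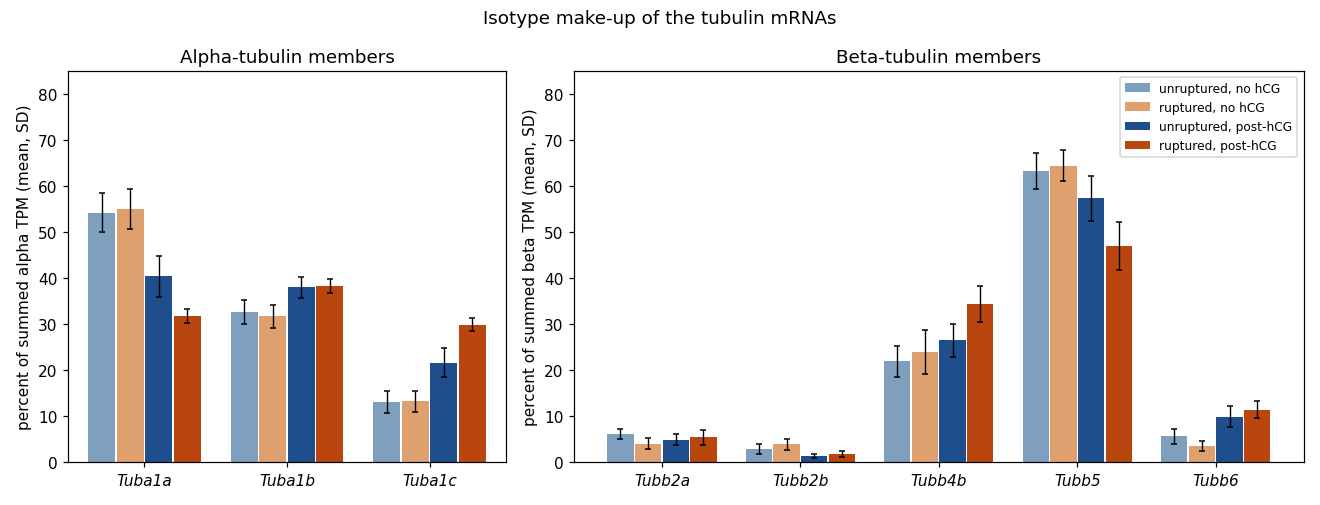
Share of each isotype in the summed TPM of the 3 alpha or 5 beta members, as the mean with SD over the libraries of each group. *Tuba1a* drops from 54.2% to 31.8% and *Tubb5* from 63.2% to 47.0% between the putative unruptured side and the ruptured side post-hCG, while the shares of *Tuba1c*, *Tubb4b* and *Tubb6* are higher post-hCG.

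*Tubb5*, the isotype that supplied most beta-tubulin mRNA in these libraries, had the lowest FDR of the members on the ruptured side. It ranged from 270 to 858 (median 570) in putative unruptured libraries and from 99.0 to 457 (median 164) in unruptured libraries post-hCG. The putative ruptured side ranged from 157 to 483 (median 382) and the ruptured side post-hCG from 26.5 to 61.8 (median 40.3). Every ruptured-side library post-hCG lay below all libraries of the other groups it was compared with, and on the unruptured side 9 of 12 post-hCG libraries lay below the lowest library without hCG. The log2FC with hCG was -1.54 ± 0.22 (FDR = 8.26e-07) on the unruptured and -2.96 ± 0.15 (FDR = 2.65e-17) on the ruptured side.

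*Tubb4b*, a widely expressed isotype, followed the same order at a lower level. Its medians were 206 (77.6 to 280) and 85.4 (47.8 to 136) on the unruptured side without and with hCG, and 132 (54.6 to 204) and 29.6 (18.9 to 41.6) on the ruptured side. The ruptured-side ranges were separate and the unruptured-side ranges overlapped. The hCG log2FC was -1.18 ± 0.19 (FDR = 4.76e-06) and -2.01 ± 0.15 (FDR = 2.15e-13).

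*Tubb2a* and *Tubb2b* are close paralogs. *Tubb2b* had the largest fall of all members. It went from a median of 25.3 (10.5 to 35.7) to 3.83 (1.97 to 9.30) on the unruptured side and from 24.6 (11.6 to 34.9) to 1.56 (0.49 to 2.28) on the ruptured side, with no overlap on either side. The log2FC was -2.50 ± 0.24 (FDR = 1.60e-10) and -3.50 ± 0.22 (FDR = 2.10e-15). *Tubb2a* went from 57.5 (23.7 to 83.2) to 12.97 (8.58 to 39.4) and from 22.5 (8.34 to 39.8) to 4.66 (2.48 to 8.30). Its log2FC was -1.73 ± 0.23 (FDR = 1.23e-07) and -2.13 ± 0.21 (FDR = 2.32e-10).

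*Tubb6* encodes a further beta-tubulin and was the beta isotype that fell least with hCG. Its medians were 47.5 (7.80 to 95.5) and 28.4 (17.1 to 50.2) on the unruptured side and 17.7 (6.53 to 44.0) and 10.3 (6.26 to 13.3) on the ruptured side, and the ranges overlapped on both sides. The log2FC was -0.74 ± 0.24 (FDR = 0.0116) and -0.88 ± 0.19 (FDR = 0.000195). With limma on log2(TPM + 1) the unruptured-side value was -0.53 and did not pass (FDR = 0.101). *Tubb6* accordingly made up 5.67% ± 1.67 (SD, n = 15) and 3.56% ± 1.11 (n = 14) of beta TPM without hCG, and 9.94% ± 2.27 (n = 12) and 11.4% ± 1.9 (n = 13) post-hCG.

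In total, the 8 tubulin genes reached a median of 3281 TPM in putative unruptured libraries, 1897 in putative ruptured libraries, 1626 on the unruptured and 584 in ruptured libraries post-hCG. Their share of all counts was 0.940% ± 0.299 (SD, n = 15), 0.573% ± 0.150 (n = 14), 0.428% ± 0.144 (n = 12) and 0.159% ± 0.022 (n = 13). The ratio of alpha to beta TPM was 2.53 ± 0.34 and 2.27 ± 0.20 on the sides without hCG, and 4.28 ± 0.65 and 5.87 ± 0.99 on the unruptured and ruptured side post-hCG. Each alpha gene shared coding windows with 25 other genes, most of them outside the alpha sum. How far the division of reads with those genes moved the sum and the ratio was not tested.

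*Stmn1*, the tubulin-sequestering stathmin, fell on both sides, and the difference between the sides did not pass the test. Its medians were 53.7 (27.9 to 114) and 9.39 (5.38 to 19.1) on the unruptured side without and with hCG, and 58.0 (34.8 to 102) and 9.69 (4.22 to 18.3) on the ruptured side. All post-hCG libraries lay below all libraries without hCG. The log2FC was -2.38 ± 0.25 (FDR = 1.39e-09) and -2.47 ± 0.18 (FDR = 9.48e-14), and their difference was -0.10 ± 0.31 (FDR = 0.899).

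*Tmsb10*, the actin monomer-binding thymosin, fell more on the ruptured side. It ranged from 278 to 621 (median 429) and from 144 to 435 (median 216) on the unruptured side without and with hCG, and these ranges overlapped. On the ruptured side it went from 357 to 1501 (median 556) to between 56.5 and 171 (median 103), without overlap. The log2FC was -0.67 ± 0.17 (FDR = 0.00106) on the unruptured and -2.50 ± 0.18 (FDR = 9.29e-14) on the ruptured side. Replicate 4 of the putative ruptured side, at 1501 TPM, stood above the next library at 867 TPM, and without it *Tmsb10* passed in both pairwise comparisons that use it. The interaction was not run without it.

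**Figure D3:**
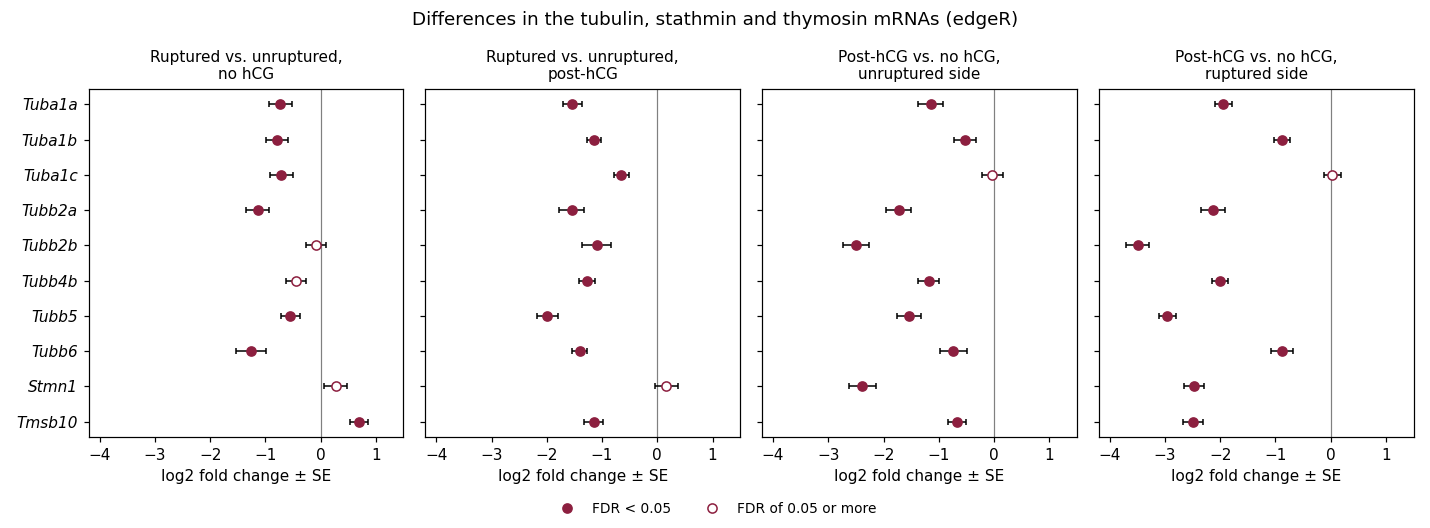
The log2 fold change with its SE for the 10 genes in the 4 pairwise comparisons from edgeR, with filled points past an FDR of 0.05. With hCG the points lie left of 0 apart from *Tuba1c*. Between the sides, the tubulins lie left of 0, and *Tmsb10* lies right of 0 without hCG and left of 0 post-hCG.

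To examine asymmetry between the follicle sides, the ruptured side was compared with the unruptured side in each medium. Without hCG, 6 members were lower in putative ruptured libraries, where 8.96% of 9063 genes were lower, and 1 (*Tmsb10*) was higher, where 8.84% were. Post-hCG, 9 members were lower on the ruptured side, where 11.3% of 8585 genes were lower, and *Stmn1* did not pass. The median log2FC of the members was -0.63 without hCG and -1.21 post-hCG, and -0.01 and 0.01 over all genes. No member had separate ranges without hCG (0.0304% of genes did), and 7 had post-hCG (1.15% of genes).

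The alpha genes were lower in putative ruptured libraries by similar amounts. Their log2FC was -0.73 ± 0.21 (*Tuba1a*, FDR = 0.0120), -0.79 ± 0.19 (*Tuba1b*, FDR = 0.00378) and -0.71 ± 0.20 (*Tuba1c*, FDR = 0.0123). All 14 putative ruptured libraries lay below the median of the putative unruptured side for *Tuba1a* and *Tuba1b*, as did 13 of 14 for *Tuba1c*. Post-hCG the differences were -1.54 ± 0.17 (FDR = 6.81e-08), -1.15 ± 0.13 (FDR = 2.68e-07) and -0.66 ± 0.14 (FDR = 0.000537), and none of the 3 genes had overlapping ranges.

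Among the beta genes, *Tubb6* (-1.26 ± 0.27, FDR = 0.00105) and *Tubb2a* (-1.14 ± 0.21, FDR = 0.000240) differed most without hCG. *Tubb5* was lower by a log2FC of -0.55 ± 0.17 (FDR = 0.0226). *Tubb4b* (-0.44 ± 0.18, FDR = 0.0926) and *Tubb2b* (-0.08 ± 0.19, FDR = 0.809) did not pass the test. Calls near the threshold depended on the fit. *Tubb4b* passed when replicate 8 or 14 of the putative unruptured side or replicate 8 or 12 of the putative ruptured side was left out (FDRs of 0.0453, 0.0435, 0.0425 and 0.0465). With every library kept, *Tubb4b* passed with library totals (FDR = 0.042) and with all 4 groups in 1 fit (FDR = 0.048). *Tubb5* did not pass with limma without a filter (FDR = 0.0562).

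Post-hCG all beta genes were lower on the ruptured side. The difference was largest for *Tubb5* (-1.99 ± 0.20, FDR = 2.14e-08), whose median was 4.07 times higher on the unruptured side. It was -1.55 ± 0.22 for *Tubb2a* (FDR = 4.48e-06), -1.41 ± 0.14 for *Tubb6* (FDR = 1.82e-08), -1.27 ± 0.15 for *Tubb4b* (FDR = 2.06e-07) and -1.09 ± 0.26 for *Tubb2b* (FDR = 0.00243). Ranges were separate for all of these but *Tubb2b*, for which 10 of 13 ruptured-side libraries lay below the lowest unruptured-side library.

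*Stmn1* did not pass a test between the sides. Its log2FC was 0.27 ± 0.20 (FDR = 0.404) without hCG and 0.16 ± 0.21 (FDR = 0.631) post-hCG, and its sign post-hCG turned in limma on log2(TPM + 1) (-0.04). *Tmsb10* changed side. It was higher in putative ruptured libraries (0.69 ± 0.16, FDR = 0.00303), with 11 of 14 libraries above the median of the putative unruptured side, and lower in ruptured libraries post-hCG (-1.15 ± 0.17, FDR = 6.95e-06), with 12 of 13 libraries below the lowest unruptured-side library. The first of these did not pass with limma on log2(TPM + 1), with a log2FC of 0.48 and an FDR of 0.0661.

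Theca and stroma markers moved with the side as well. Of 8 such genes, 6 of 7 tested were lower in putative ruptured libraries and 5 of 5 tested were lower in ruptured libraries post-hCG. Of all genes tested, 8.96% and 11.3% were lower in these comparisons. Their sum ranged from 29.2 to 2784 TPM in putative unruptured libraries, 4.12 to 568 in putative ruptured libraries, 72.6 to 1333 in unruptured libraries post-hCG and 1.10 to 53.0 in ruptured libraries post-hCG, where *Cyp17a1*, the androgen-producing enzyme of theca cells, was listed at 0 in every library. Granulosa markers moved the other way without hCG, with 6 of 7 tested higher in putative ruptured libraries and 0 lower. In that comparison 8.84% of all genes tested were higher. The part of these cell populations in the side differences of the tubulins was not tested.

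Within single groups, members were also set against these markers across libraries, a spread that enters the SEs of the group comparisons. Of 80 relations between a member and the log2 sum of theca and stroma or of cell cycle markers, 7 passed a permutation test with Benjamini-Hochberg adjustment over all 80, each with a positive r. The closest were between *Tubb6* and the theca and stroma sum in unruptured libraries post-hCG (Pearson's r = 0.875, adjusted permutation p = 0.0124, Spearman's rho = 0.790, adjusted permutation p = 0.132, n = 12) and in putative unruptured libraries (r = 0.865, adjusted permutation p = 0.0124, rho = 0.689, adjusted permutation p = 0.151, n = 15). *Tuba1b* and *Tuba1c* in putative unruptured libraries (r = 0.711 and 0.691) and *Tubb5* and *Tmsb10* in ruptured libraries post-hCG (r = 0.720 and 0.740) passed with the same marker sum. *Stmn1* was related to the cell cycle sum in ruptured libraries post-hCG (r = 0.792, adjusted permutation p = 0.0331, rho = 0.632, adjusted permutation p = 0.186, n = 13). By rank 0 of the 80 passed, with adjusted p-values of 0.132 or more. Without the 2 libraries farthest from the median of the marker sum, 0 of the 80 passed, and r was 0.762 and 0.570 for *Tubb6*, 0.398, 0.326, 0.295 and 0.728 for the 4 others with theca and stroma, and 0.652 for *Stmn1*.

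The difference between the hCG effects on the 2 sides was tested as an interaction. It passed for 4 of 10 members, all with a larger fall on the ruptured side, where 8.91% of 10013 genes passed and 4.65% passed in this direction. The value was -1.84 ± 0.25 for *Tmsb10* (FDR = 1.12e-06), -1.43 ± 0.27 for *Tubb5* (FDR = 0.000275), -0.82 ± 0.24 for *Tubb4b* (FDR = 0.0227) and -1.002 ± 0.33 for *Tubb2b* (FDR = 0.0452). *Tuba1a* had a value of -0.80 ± 0.27 and did not pass (FDR = 0.0541). *Tuba1b* (-0.35 ± 0.24), *Tuba1c* (0.06 ± 0.25), *Tubb2a* (-0.41 ± 0.32), *Tubb6* (-0.14 ± 0.32) and *Stmn1* (-0.10 ± 0.31) had FDRs between 0.416 and 0.928. The call on *Tubb2b* was lost without a filter (FDR = 0.0818) and on counts thinned to the smallest library (FDR = 0.0741), and *Tuba1a* passed in 6 of 10 alternatives, with DESeq2, library totals, a minimum mean of 20 counts and the 3 limma fits (FDRs from 0.0132 to 0.0469).

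The order of the members differed between groups accordingly. *Tuba1a* had the highest mean log2(TPM + 1) in putative unruptured libraries, the gap to *Tuba1b* being 0.73 and larger than the spread, and *Tubb2b* the lowest. On the putative ruptured side *Tmsb10* ranked second and did not differ from *Tuba1a* beyond the spread (gap 0.21). On the ruptured side post-hCG *Tuba1b* ranked first, 0.27 above *Tuba1a*, and *Tubb5* stood at rank 5, against rank 3 in putative unruptured libraries. *Tubb2a*, *Stmn1* and *Tubb6* could not be ordered in putative unruptured libraries, nor *Tubb2a*, *Tubb2b* and *Tubb6* in putative ruptured libraries, since the gaps between neighbors were below the SD.

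Tubulin genes were also compared between libraries of the same group. After group means were subtracted, Pearson's r over the 54 libraries, given as a description, was positive for each pair of tubulin genes. It was 0.921 between *Tuba1a* and *Tuba1b*, 0.871 between *Tuba1a* and *Tubb5* and 0.882 between *Tuba1b* and *Tubb4b*. Between tubulin genes other than *Tubb2b* r was 0.54 or more. *Tubb2b* had lower values, from 0.304 with *Tubb6*, 0.306 with *Tuba1c* and 0.372 with *Tubb4b* to 0.640 with *Tubb2a*. With the tubulins, r was between -0.10 and 0.27 for *Stmn1* and between 0.06 and 0.46 for *Tmsb10*. The values for *Stmn1* differed between groups, from -0.43 with *Tubb6* in putative unruptured libraries to 0.63 with *Tubb2a* in unruptured libraries post-hCG and 0.67 with *Tubb6* in ruptured libraries post-hCG. Points in these relations share library depth and RNA input.

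Of 3327 other genes averaging 10 TPM or more, those whose within-group pattern over the 54 libraries was most like the summed alpha genes were *RP23-278C10.11* (r = 0.900), a clone-named gene with no position in the annotation used, for which sharing of reads with the tubulin genes was not tested, *Slc7a11* (r = 0.757), a cystine transporter subunit, and *Lgals1* (r = 0.747), galectin 1. The summed beta genes were closest to *RP23-278C10.11* (r = 0.810), *Arf4* (r = 0.786) and *Copb2* (r = 0.759), and the last 2 encode parts of the vesicle coat machinery. *Stmn1* was closest to *Cmtm3* (r = 0.760), *Hmgb3* (r = 0.725), a chromatin protein, and *Hn1* (r = 0.718). *Tmsb10* was closest to *Rplp2* (r = 0.735) and *Rps29* (r = 0.726), which encode ribosomal proteins, and to the initiation factor gene *Eif1* (r = 0.721).

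Related genes were examined with lists for the rest of the tubulin and thymosin families and for proteins that fold, modify or bind tubulin or actin. Of the other tubulin genes, 4 of 12 could be tested with hCG on the unruptured side, and 2 were tested on the ruptured side. *Tubb3*, a beta isotype best known from neurons, fell with hCG by a log2FC of -2.02 ± 0.28 (FDR = 4.19e-07) on the unruptured side. On the ruptured side it fell by -2.78 ± 0.33 (FDR = 8.48e-09), with a highest group mean of 9.92 TPM. *Tubg1*, the gamma-tubulin that nucleates microtubules, rose on both sides, by 1.10 ± 0.10 (FDR = 4.85e-11) and 1.56 ± 0.12 (FDR = 1.30e-12). Of 8 other stathmin and thymosin genes, 1 rose and 1 fell of 2 tested on the unruptured side, and 1 rose of 1 tested on the ruptured side. *Tmsb4x*, which encodes thymosin beta-4, went the opposite way to *Tmsb10*, with medians of 174 (105 to 382) and 496 (193 to 862) on the unruptured side and 106 (36.6 to 319) and 240 (185 to 417) on the ruptured side. It was higher with hCG by a log2FC of 1.34 ± 0.23 (FDR = 9.58e-06) and 1.40 ± 0.23 (FDR = 4.57e-06).

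Of the folding and autoregulation genes, 3 of 19 tested rose and 6 fell with hCG on the unruptured side. On the ruptured side 4 of 18 rose and 4 fell. The shares of all genes tested that passed with hCG were 53.1% (unruptured side) and 60.1% (ruptured side). *Tbca*, tubulin cofactor A, a chaperone of beta-tubulin, fell most. It went from a median of 200 (102 to 317) to 96.1 (69.1 to 144) on the unruptured side and from 245 (153 to 424) to 64.1 (31.9 to 84.7) on the ruptured side, where the ranges were separate. Its log2FC was -0.999 ± 0.15 (FDR = 1.60e-06) and -1.97 ± 0.14 (FDR = 4.42e-14), and the interaction was -0.97 ± 0.21 (FDR = 0.00143). *Pfdn5*, a prefoldin subunit, fell by a log2FC of -0.82 ± 0.14 and -0.90 ± 0.12, while *Cct7*, a subunit of the chaperonin that folds actin and tubulin, rose by 0.33 ± 0.12 and 0.45 ± 0.10 (FDRs of 0.0209 and 0.000155). *Ttc5*, which encodes the adaptor of the autoregulation pathway, did not pass in any comparison. Its log2FC was between -0.27 and -0.03 in the 4 pairwise comparisons.

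Of the enzymes that modify tubulin, 2 of 12 tested were higher and 3 lower with hCG on the unruptured side, and 2 of 10 were higher and 6 lower on the ruptured side. *Atat1*, the alpha-tubulin acetyltransferase, fell by a log2FC of -0.92 ± 0.20 (FDR = 0.000352) and -1.63 ± 0.13 (FDR = 1.54e-12), and *Sirt2*, a deacetylase that acts on tubulin, rose by 0.58 ± 0.11 (FDR = 4.90e-05) on the unruptured side. Of the microtubule-associated proteins, 5 rose and 10 fell of 25 tested on the unruptured side, and 5 rose and 10 fell of 23 on the ruptured side. *Dpysl3*, a tubulin-binding collapsin response mediator, fell by -3.12 ± 0.21 (FDR = 8.48e-14) and -3.55 ± 0.22 (FDR = 2.19e-15), and its relative *Dpysl2* by -1.001 ± 0.20 (FDR = 8.32e-05) and -1.54 ± 0.17 (FDR = 3.20e-09). *Map1b*, a microtubule-stabilizing protein, rose by 0.67 ± 0.10 (FDR = 1.40e-06) and 0.42 ± 0.14 (FDR = 0.00943).

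Between the sides, the same lists gave the following counts. Over all genes tested, 17.8% passed without hCG and 21.4% post-hCG. Of the other tubulin genes, 0 were higher and 2 lower of 4 tested without hCG and 1 was higher and 1 lower of 2 tested post-hCG. *Tubb3* was lower in putative ruptured libraries by a log2FC of -1.28 ± 0.30 (FDR = 0.00251). Post-hCG it was lower in ruptured libraries by -2.05 ± 0.28 (FDR = 2.22e-06), with a highest group mean of 6.72 TPM. *Tmsb4x* was lower in ruptured libraries post-hCG (-0.62 ± 0.21, FDR = 0.0294), as *Tmsb10* was. Without hCG its log2FC was -0.68 ± 0.25 and did not pass (FDR = 0.0531), whereas *Tmsb10* was higher in putative ruptured libraries. Of 19 folding genes tested in each medium, 1 was higher and 2 lower without hCG and 0 higher and 1 lower post-hCG. *Tbca* was higher in putative ruptured libraries (0.44 ± 0.15, FDR = 0.0418) and lower in ruptured libraries post-hCG (-0.54 ± 0.13, FDR = 0.00198), the same order as *Tmsb10*. Of the modifying enzymes, 1 of 11 was lower without hCG and 0 of 10 passed in edgeR post-hCG, with 2 at an unadjusted p under 0.05 and 0 in DESeq2. Of the microtubule-associated proteins, 2 of 25 were higher and 1 lower without hCG, and 3 of 23 were higher and 4 lower post-hCG. *Map1b* was higher on the ruptured side in each medium (0.70 ± 0.13, FDR = 0.000306, and 0.43 ± 0.10, FDR = 0.00235).

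Genes for actin and its monomer-binding partners moved in either direction. With hCG, 5 rose and 4 fell of 19 tested on the unruptured side and 7 rose and 6 fell on the ruptured side. Of all genes tested, 53.1% and 60.1% passed in these comparisons, and 27.7% and 30.4% were lower. *Gsn*, the filament-severing gelsolin, rose most, by 1.54 ± 0.16 (FDR = 1.11e-09) and 2.58 ± 0.20 (FDR = 6.51e-13). Between the sides, 0 were higher and 5 lower in putative ruptured libraries, and 1 was higher and 6 lower in ruptured libraries post-hCG. Of all genes tested, 8.84% were higher and 8.96% lower without hCG, and 11.3% were lower post-hCG. Of the cell cycle genes, 5 of 9 tested fell with hCG on the unruptured side and 11 of 14 on the ruptured side, and 0 rose. On the putative ruptured side 9 of 15 tested were higher and 0 lower, and post-hCG 4 of 8 were higher and 0 lower. Among those that did not pass post-hCG, *Mcm3* and *Pcna* had log2FCs of -0.26 and -0.43. *Cdk1*, the mitotic kinase, fell with hCG on each side. The log2FC was -1.27 ± 0.33 (FDR = 0.00151) on the unruptured and -1.29 ± 0.32 (FDR = 0.000925) on the ruptured side. *Cdk1* was higher in putative ruptured libraries by 1.01 ± 0.30 (FDR = 0.0169) and in ruptured libraries post-hCG by 0.97 ± 0.35 (FDR = 0.0457). The cell cycle genes that passed moved with hCG in the direction of *Stmn1* and between the sides in the direction opposite to the tubulins that passed, and the part of cycling cells in the *Stmn1* levels was not tested.

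**Figure D4:**
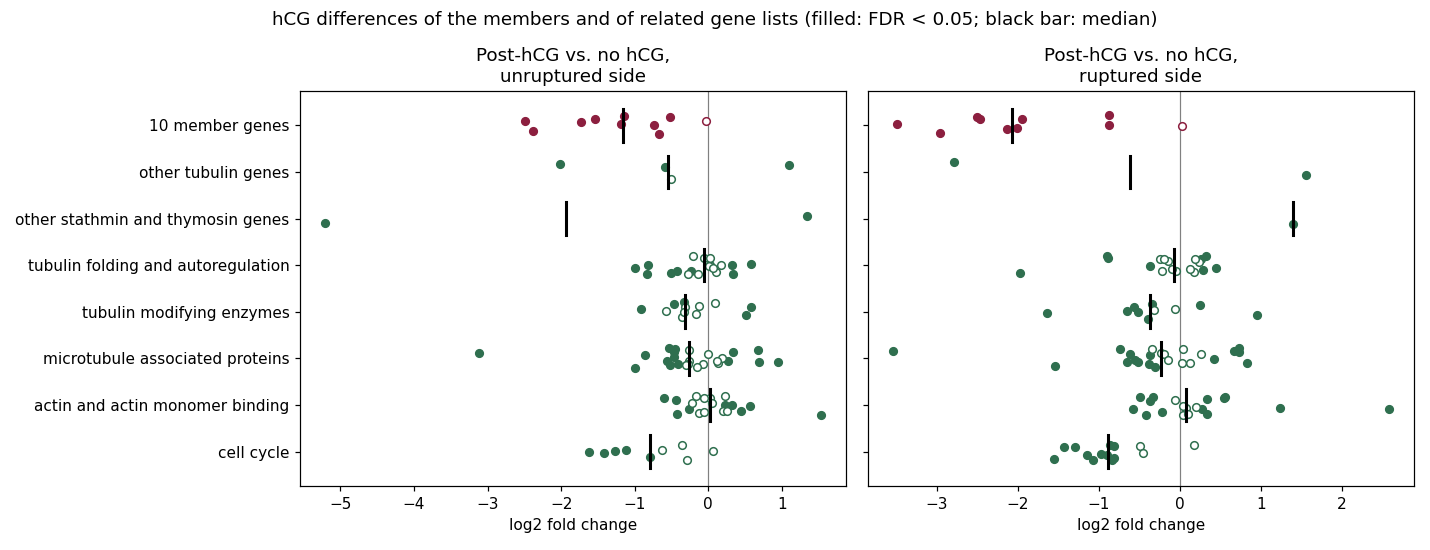
The log2 fold change with hCG on each side for the 10 genes and for the genes of 7 related lists that passed the expression filter, with filled points past an FDR of 0.05 and a black bar at each median. The member genes have medians of -1.16 and -2.07 and cell cycle genes -0.79 and -0.88, while folding, modifying, microtubule-associated and actin genes lie on both sides of 0.

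Promoter sequence was examined last, for members that moved together. RefSeq windows of 250 bases before the gene start, on GRCm38.p6, were found for 7 of the 10 genes. *Tubb2a*, *Tubb4b* and *Tubb5*, which fell with hCG, and *Tuba1c*, which did not pass, are printed here, chosen after the values were seen. Capitals mark matches on either strand to CCAAT, to TATAAA, to CACGTG (an E-box), to TGACGTCA (the full cAMP response element), to TCAAGGTCA (an orphan receptor half-site) or to TTTGGCGC (an E2F motif), none of which overlapped.
Tubb2a, chr13:34078009-34078258, minus strand: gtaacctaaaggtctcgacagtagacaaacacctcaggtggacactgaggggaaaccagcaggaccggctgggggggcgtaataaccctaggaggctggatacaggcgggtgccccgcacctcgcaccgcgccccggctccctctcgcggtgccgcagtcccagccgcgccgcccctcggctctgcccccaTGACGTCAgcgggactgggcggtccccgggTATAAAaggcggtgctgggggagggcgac
Tubb4b, chr2:25224703-25224952, minus strand: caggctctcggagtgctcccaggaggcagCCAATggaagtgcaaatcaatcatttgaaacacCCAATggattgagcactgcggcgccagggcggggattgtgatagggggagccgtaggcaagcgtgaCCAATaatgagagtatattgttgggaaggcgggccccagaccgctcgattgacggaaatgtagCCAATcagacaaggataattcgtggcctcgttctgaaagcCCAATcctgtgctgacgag
Tubb5, chr17:35838302-35838551, minus strand: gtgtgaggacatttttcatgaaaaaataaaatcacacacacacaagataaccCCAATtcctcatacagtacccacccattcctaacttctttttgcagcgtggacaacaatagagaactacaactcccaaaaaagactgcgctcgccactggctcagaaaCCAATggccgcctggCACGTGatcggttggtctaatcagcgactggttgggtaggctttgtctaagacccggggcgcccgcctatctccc
Tuba1c, chr15:99029641-99029890, plus strand: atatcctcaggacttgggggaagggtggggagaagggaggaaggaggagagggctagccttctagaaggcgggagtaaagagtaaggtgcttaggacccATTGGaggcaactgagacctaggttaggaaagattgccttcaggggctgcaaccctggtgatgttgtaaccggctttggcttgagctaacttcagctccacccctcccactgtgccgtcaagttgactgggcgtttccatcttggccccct
The *Tubb2a* window held TGACGTCA 59 bases and TATAAA 29 bases before the start, and these occur in 1.55% and 12.4% of 32851 windows of the same length. *Tubb4b* held 5 CCAAT matches, *Tubb5* held 2 and a CACGTG, and *Tuba1c* held 1 CCAAT, while CCAAT occurs in 33.8% and CACGTG in 6.02% of all windows. TCAAGGTCA and TTTGGCGC were in none of the 7 genes' windows and in 0.387% and 0.417% of all windows. These matches describe the letters only, and binding was not measured.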

How the data were processed

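RNA-seq tables of 54 follicle-side libraries in 4 groups were used. The authors made paired-end Smart-Seq2 libraries, aligned reads to GRCm38 with HISAT2 and, in their methods, applied ComBat-seq. The counting program and annotation are not given in the sources used here, nor whether the deposited tables precede the batch correction. The deposited estimated counts per gene hold fractions and were rounded here. The deposited TPM values are the authors' length- and library-scaled values. They summed to 585982 to 678417 per library, so they cover part of each library. All columns were matched to labels (0 left over).

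Groups came from the GEO labels. The quasi-likelihood test of edgeR 4.0.16 (R 4.3.3) was run in 5 comparisons after TMM scaling, on genes that passed filterByExpr (at least 10 counts, and 15 summed over libraries). FDRs are Benjamini-Hochberg values over all genes tested, with a threshold of 0.05. The SE of a log2FC is its size over the square root of F. Positive values are higher on the ruptured side or post-hCG. The interaction is the hCG effect on the ruptured side minus that on the unruptured side. All 10 members passed the filter in every comparison. On simulated counts with 100 genes changed 2-fold, edgeR recovered 87% of them for the sides without hCG and 73% for the interaction. A further 100 genes were changed 4-fold and the rest had equal means, so scaling when many genes change was not covered. The members and the gene lists were chosen with earlier results of these data known. Each comparison between sides shares groups with the comparisons of hCG. From each list the 2 genes with the largest change in each direction past the threshold, with a mean of at least 10 TPM in the higher group, could be named. *Ttc5*, the side values of *Tmsb4x*, and genes of the marker lists were named for their role, after their values were seen. Values of *Tubb3* and *Cdk1* are given for all pairwise comparisons, also where the mean of the higher group was below 10 TPM.

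Relations used log2 sums of TPM with 100000 permutations, two-sided. Sequences were read from GENCODE M21 and RefSeq promoter windows. Alternatives were DESeq2 1.42.0, RLE size factors, library totals, no filter, a mean of 20 counts, all groups in 1 fit, thinned counts, the replicate number as a block, limma 3.58.1 on log2(TPM + 1) or log2(TPM + 0.1), each library left out in turn, and shares from estimated counts. Python 3.11.15 was used for the rest.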

Additional observations from a re-analysis of the deposited data

Results flagged for a closer look

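The hCG effect differed between the follicle sides for 4 of the 10 genes in the interaction test over all genes, in each case with the larger fall on the ruptured side. The interaction was -1.84 for *Tmsb10*, -1.43 for *Tubb5*, -1.002 for *Tubb2b* and -0.82 for *Tubb4b* on the log2 scale. Each of the groups held more than 10 libraries, and single libraries were not screened as outliers for the interaction. The interaction was not run without replicate 4 of the putative ruptured side, which stood apart in *Tmsb10*.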

How the results depend on the processing

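The number of members called stayed within 1.5 times the main count in each comparison, at 5 to 8 for the sides without hCG, 8 to 9 for the sides post-hCG, 7 to 9 and 9 for hCG on the unruptured and ruptured side, and 3 to 5 for the interaction. With each library left out in turn it was 7 to 8, 9, 9 and 9 in the 4 pairwise comparisons, and this was not run for the interaction. *Stmn1* between the sides post-hCG turned from 0.16 to -0.041 with limma on log2(TPM + 1), filtered or not, and -0.046 with log2(TPM + 0.1). *Tuba1c* with hCG on the unruptured side turned from -0.03 to 0.10 in the 3 limma fits and ranged from -0.13 to 0.076 without single libraries. On the ruptured side it turned from 0.03 to -0.31 with library totals, -0.092 in the limma fits and -0.00393 with the replicate block, and ranged from -0.036 to 0.082 without single libraries. Its interaction turned from 0.06 to -0.082 with library totals and -0.19 in the limma fits. None of these values passed the test, and the cause was not tested. Of the relations with marker sums, 7 passed, and 0 did without the 2 farthest libraries. Isotype shares from estimated counts moved by more than 1 SD in 14 of 32 values, chiefly among the beta genes, and *Tubb5* was then 74.7% (putative unruptured) and 60.2% (ruptured, post-hCG). Over all genes, limma on log2(TPM + 1) called 1054 genes between the sides without hCG where edgeR called 1613. Its share of higher calls was 9.0% where edgeR gave 47.0% for the sides post-hCG, 34.3% where edgeR gave 49.4% for hCG on the ruptured side, and 11.1% where edgeR gave 47.8% for the interaction. Same-numbered libraries rarely varied together: 1 or 2 of the 12 to 14 same-numbered pairs per comparison had deviations correlated above 0.1, and 1 or 2 libraries matched their own number best. This cannot settle whether they shared a follicle, because differences between the sides of a follicle could hide it. With the replicate block 6 members passed between the sides without hCG, *Tubb5* being lost (-0.51, FDR = 0.0700), and 9, 9, 9 and 4 in the other comparisons. Depth limits the scarcest member, *Tubb2b*, at 0.49 to 2.28 TPM in ruptured libraries post-hCG.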
